A study of Mus musculus with 12 samples.

Results

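The genes described here are 8 members of the Ly6 and Gml family, namely Ly6d, Gml, 2010109I03Rik, Ly6a, Ly6c1, Ly6e, Ly6k and Lypd8. They were taken by gene symbol from the deposited tables, and 7 of the 8 had a row among the 18929 genes of either table. Ly6k, at chr15:74796874-74799986 in GRCm38, had no row and is not analysed here. The set was selected on the log2 fold changes of Ly6d, Gml and 2010109I03Rik, which were below control in Hdac1-deficient and above it in Hdac2-deficient enteroids, so the values of these genes are given as a description with no test.

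Ly6 proteins are small cell surface or secreted proteins built on a compact fold of loops held together by disulfide bonds, shared with the urokinase receptor uPAR. Most are tethered to the outer membrane by a glycosylphosphatidylinositol (GPI) anchor, and several are used as surface markers of blood, stem and epithelial cells. Many of the mouse genes lie side by side on chromosome 15, where the family has expanded by duplication, and their RNA in epithelium often differs with differentiation, injury and interferon.

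RNA was sequenced from 12 libraries of murine jejunal enteroids, which are epithelial cultures grown from intestinal crypts, after 5 days in ENR medium. The 4 control libraries came from villin-Cre enteroids, the 4 Hdac1-deficient libraries from enteroids labelled HDAC1-/- and the 4 Hdac2-deficient libraries from enteroids labelled HDAC2-/-. HDAC1 and HDAC2 are class I deacetylases that remove acetyl groups from histones and other proteins, and the study asked which genes depend on each of them in intestinal epithelial cells. The floxed alleles were deleted by Cre driven by the villin promoter, which is active in intestinal epithelium, on a mixed C57BL/6 J, 129SV and CD1 background. According to the methods, crypts of 1 mouse per genotype were used. No source says that the 4 libraries of a group were separate mice. The p-values therefore measure only the spread between these libraries, which may be technical, and the deletion cannot be told apart from the mouse, its alleles of the chromosome 15 region and the line grown from it.

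Each library held 20693200 to 30658628 counts, so that 3 counts, taken as the floor of detection for counting error, equalled 0.0979 to 0.145 CPM (counts scaled to the library size after TMM normalization). In the libraries labelled with its deletion, Hdac1 was at 4.23 ± 0.841 CPM (SD, n = 4) against 90.5 ± 2.87 in control, and Hdac2 at 75.9 ± 2.84 against 136.9 ± 4.39 CPM. The fall of Hdac2 was 1.79-fold, under 2-fold. In the other mutant, Hdac1 was at 75.3 ± 4.41 CPM without Hdac2, and Hdac2 at 111.8 ± 3.70 CPM without Hdac1. The counts are per gene, so any reads from exons outside the deleted part are included, and their share was not tested. All 10 markers of intestinal epithelium had a row, with a summed level of 8713 to 9377 CPM in control libraries. In bulk RNA, fewer cells of a type and less RNA per cell cannot be told apart.

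Fold changes are log2 values from edgeR's quasi-likelihood test with Benjamini-Hochberg adjustment over all genes tested, and a call needed both an adjusted p no higher than 0.05 and a change above 2-fold. Of the 13851 genes tested against control for both deletions, 10 (0.0722%) met these limits as lower in Hdac1-deficient and higher in Hdac2-deficient enteroids. The 3 genes that the choice rested on are in that number by the choice itself, which is no test of them, and the other 7 were not members. The opposite pattern, higher without Hdac1 and lower without Hdac2, was called for 8 genes (0.0578%). Both comparisons share the same control libraries.

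Ly6d encodes a GPI-anchored protein that marks early B lymphoid progenitors and squamous epithelial cells. In control replicates 1 to 4 its level was 0.971, 1.55, 1.45 and 0.756 CPM. In Hdac1-deficient replicates 1 to 4 it was 0.187, 0.680, 0.624 and 0.800 CPM, and in Hdac2-deficient replicates 3.61, 4.06, 5.19 and 2.60 CPM. Every Hdac2-deficient library lay above every control library, whereas the highest Hdac1-deficient library overlapped the lowest control library. The log2 fold change against control was -1.03 (SE 0.31) without Hdac1 and 1.69 (SE 0.23) without Hdac2. The lowest of these values rested on few reads, since Hdac1-deficient replicate 1 held 5 counts of Ly6d and the other 3 held 19 to 22. Without that library the log2 fold change was -0.76, inside the 2-fold limit.

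Gml, named for its likeness to GPI-anchored molecules, encodes a Ly6-type protein whose human counterpart was identified as a gene induced by p53. Its levels were 0.636, 0.598, 0.495 and 0.798 CPM in control, 0.375, 0.453, 0.263 and 0.0727 CPM in Hdac1-deficient and 0.847, 1.29, 1.84 and 1.65 CPM in Hdac2-deficient replicates 1 to 4. The 3 groups did not overlap, although Hdac1-deficient replicate 2 and control replicate 3 were close. Control replicate 4 and Hdac2-deficient replicate 1 were close as well. The log2 fold change against control was -1.06 (SE 0.35) without Hdac1 and 1.15 (SE 0.26) without Hdac2. Hdac1-deficient replicate 4 held 2 counts of Gml, under the floor, and leaving it out brought the value to -0.76. Leaving out each library in turn kept the Hdac2 value between 1.00 and 1.34. Of the 100-base windows in the Gml transcript, 8.0% were also found in its neighbour Gml2, so reads could have been divided between them.

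2010109I03Rik, which RefSeq names Ly6m, is a further Ly6-type gene of the chromosome 15 cluster. It was steady in control replicates 1 to 4, at 0.770, 0.880, 0.859 and 0.882 CPM. The Hdac1-deficient replicates were at 0.412, 0.518, 0.591 and 0.109 CPM and the Hdac2-deficient replicates at 1.80, 2.58, 2.71 and 1.82 CPM. Again no group overlapped another, and Hdac1-deficient replicate 4, with 3 counts, was the lowest library for this gene as it was for Gml. The log2 fold change against control was -1.01 (SE 0.30) without Hdac1, which became -0.71 without replicate 4, and 1.39 (SE 0.19) without Hdac2. All 4 Hdac1-deficient libraries below control and all 4 Hdac2-deficient libraries above it were also seen for 278 of 13851 genes (2.01%), Gml and 2010109I03Rik among them. The Hdac1 values of these 3 genes lay just past the 2-fold limit, and nothing is read from that threshold.

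**Figure D1:**
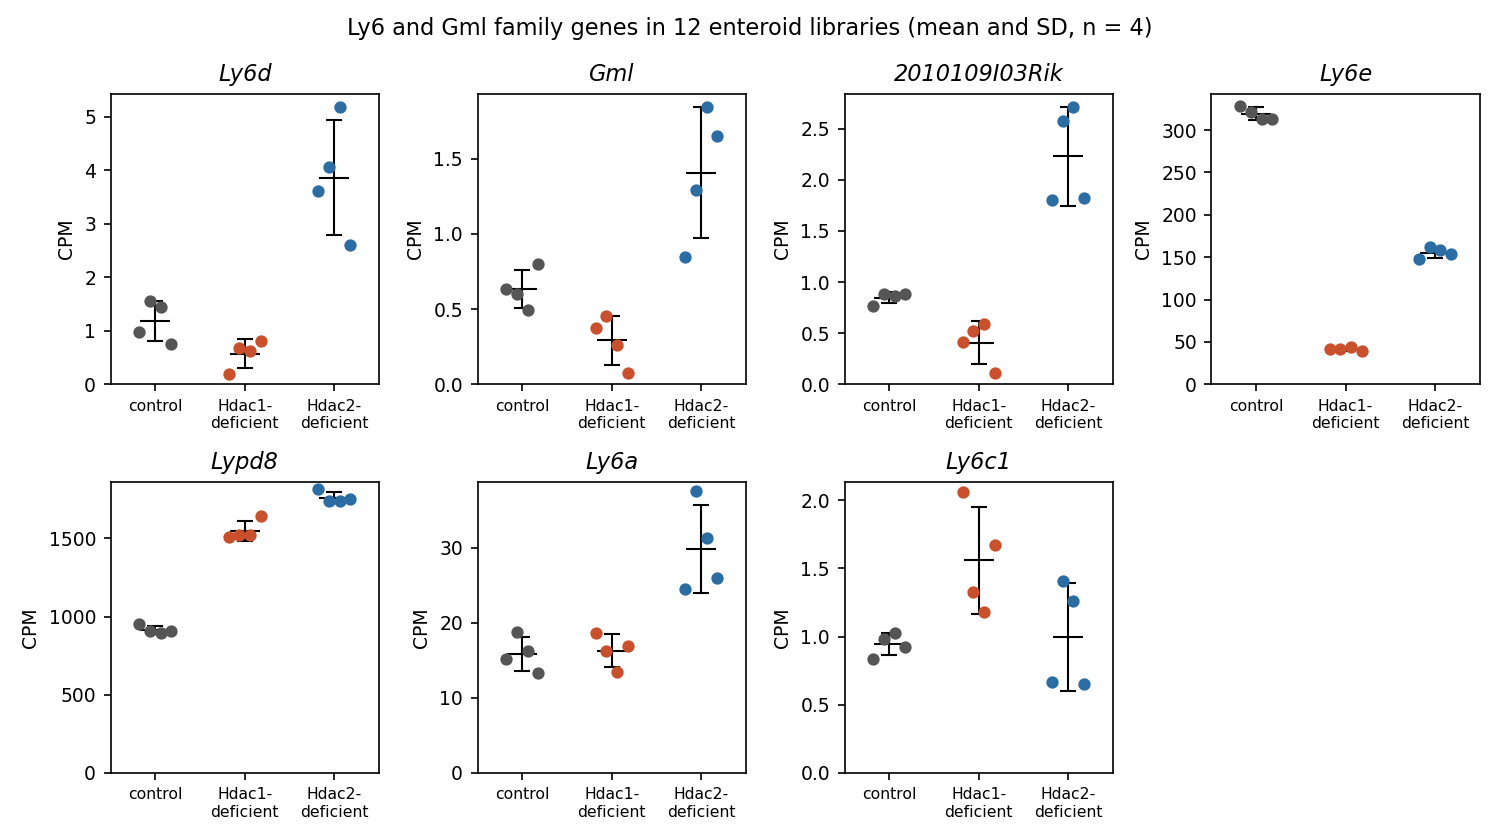
CPM of each of the 7 listed genes (y axis, one scale per gene) in control, Hdac1-deficient and Hdac2-deficient libraries, with each point 1 library and bars showing mean and SD (n = 4). Ly6d, Gml and 2010109I03Rik sit lowest without Hdac1 and highest without Hdac2, whereas Ly6e lies below control in both and Lypd8 above control in both.

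Among the 4 members tested that the choice did not rest on, Ly6e was the only one called in any of the 3 comparisons, and it was lower in all of them. Lower calls covered 3.71% of all genes tested without Hdac1, 2.84% without Hdac2, and 2.89% in the comparison of Hdac1-deficient with Hdac2-deficient enteroids. The 4 genes had 0 higher calls by edgeR, against 6.87%, 5.45% and 2.74% of all genes, and 0 also with DESeq2 or at an unadjusted p under 0.05 with the same 2-fold limit. By adjusted p alone, Ly6c1 and Lypd8 were higher without Hdac1 (32.7% of all genes) and Ly6a and Lypd8 were higher without Hdac2 (31.4%), and Ly6e was lower in both, as were 31.9% and 30.9% of all genes. Libraries that did not overlap control were frequent among all genes, at 28.5% higher and 30.1% lower without Hdac1 and 27.9% higher and 28.2% lower without Hdac2. Between the mutants, 19.7% of genes were higher and 22.1% lower in Hdac1-deficient enteroids with no overlap.

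Ly6e encodes an interferon-inducible GPI-anchored protein that serves as a receptor for syncytin-A in the placenta and restricts coronavirus entry. Control replicates 1 to 4 were at 328.6, 321.8, 313.3 and 313.3 CPM. The Hdac1-deficient replicates were at 41.9, 41.3, 43.5 and 39.0 CPM and the Hdac2-deficient replicates at 147.4, 162.0, 158.3 and 153.3 CPM. The spread within each group was small beside the distances between them, and no groups overlapped. Ly6e fell by 2.93 on the log2 scale without Hdac1 (SE 0.04, adjusted p = 2.2e-22 by edgeR), a 7.64-fold decrease. It fell by 1.03 without Hdac2 (SE 0.03, adjusted p = 1.1e-16 by edgeR), a 2.04-fold decrease. In the direct comparison of the mutants it was lower in Hdac1-deficient enteroids by 3.74-fold (log2 difference -1.90, SE 0.04, adjusted p = 8.3e-24 by edgeR). With any 1 library left out, the Hdac2 value stayed between -1.05 and -1.01, near the 2-fold limit.

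Ly6a encodes Sca-1, a surface marker of haematopoietic stem cells that is also expressed by regenerating and fetal-like intestinal epithelium. Its levels were 15.2, 18.7, 16.2 and 13.3 CPM in control replicates and 18.6, 16.2, 13.5 and 16.9 CPM in Hdac1-deficient replicates 1 to 4. The Hdac2-deficient replicates were at 24.5, 37.5, 31.3 and 25.9 CPM, all above every control and every Hdac1-deficient library, while these last groups overlapped. The log2 fold change was 0.91 without Hdac2 (SE 0.17, adjusted p = 0.0028 by edgeR), a 1.88-fold difference under the limit for a call. Without Hdac1 it was 0.04, with a 95% interval, taken from its standard error, of -0.17 to 0.25. Its log2 difference between the mutants was -0.88 (SE 0.16, adjusted p = 0.0011 by edgeR), lower in Hdac1-deficient enteroids.

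Ly6c1 encodes one of the Ly6C antigens of monocytes and endothelial cells. Control replicates 1 to 4 were at 0.837, 0.985, 1.02 and 0.924 CPM, Hdac1-deficient replicates at 2.06, 1.33, 1.18 and 1.67 CPM and Hdac2-deficient replicates at 0.663, 1.41, 1.26 and 0.651 CPM. The Hdac1-deficient libraries were all above control, and the Hdac2-deficient libraries lay on either side of it. The log2 fold change was 0.72 without Hdac1 (SE 0.20, adjusted p = 0.0040 by edgeR), under the 2-fold limit. Without Hdac2 it was 0.08, with a 95% interval of -0.42 to 0.57. The log2 difference of 0.65 between the mutants had an adjusted p of 0.026 by edgeR (0.0072 to 0.12 over the alternatives run), with overlapping libraries. Of 7 endothelial markers 3 had a row, and they summed to 1.39 to 1.88 CPM in control, 1.05 to 1.53 CPM without Hdac1 and 1.43 to 1.75 CPM without Hdac2. The 4 leukocyte markers with a row, of 13, summed to 1.19 to 1.88 CPM in control and 3.14 to 4.17 CPM without Hdac1. Without Hdac1, S100a9 held 20 to 37 counts against 2 to 8 in control, and Itgam 44 to 72 against 19 to 28. Csf1r held 20 to 22 against 6 to 20, and Ptprc 0 to 4 against 0 to 2. The part of these cells' RNA in the level of Ly6c1 was not tested. Some 15.3% of the 100-base windows of Ly6c1 were shared with Ly6c2.

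Lypd8 encodes a heavily glycosylated GPI-anchored protein of enterocytes that binds flagellated bacteria and keeps them from the epithelial surface. It had the highest level per length of the members, and its libraries were at 950.8, 908.1, 893.7 and 906.3 CPM in control replicates 1 to 4. The Hdac1-deficient replicates were at 1506, 1522, 1520 and 1642 CPM and the Hdac2-deficient replicates at 1815, 1739, 1742 and 1751 CPM. The 3 groups did not overlap, with control lowest and Hdac2-deficient highest. Lypd8 was 1.71-fold higher without Hdac1 (log2 fold change 0.77, SE 0.04, adjusted p = 2.9e-13 by edgeR) and 1.94-fold higher without Hdac2 (0.95, SE 0.03, adjusted p = 1.2e-16 by edgeR), both under the limit for a call. Between the mutants the log2 difference was -0.19 (SE 0.03, adjusted p = 3.8e-05 by edgeR). The gene lies apart from the others, at chr11:58379043-58390728. Of the 10 markers of intestinal epithelium, 7 were higher and 1 lower by adjusted p without Hdac1 (32.7% and 31.9% of all genes), and 7 were higher and 0 lower without Hdac2 (31.4% and 30.9%) by edgeR, with 0 lower at an unadjusted p under 0.05 as well. None of the 10 passed 2-fold, and their median log2 fold change was 0.30 without Hdac1 and 0.39 without Hdac2. The part of this difference in that of Lypd8 was not tested.

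**Figure D2:**
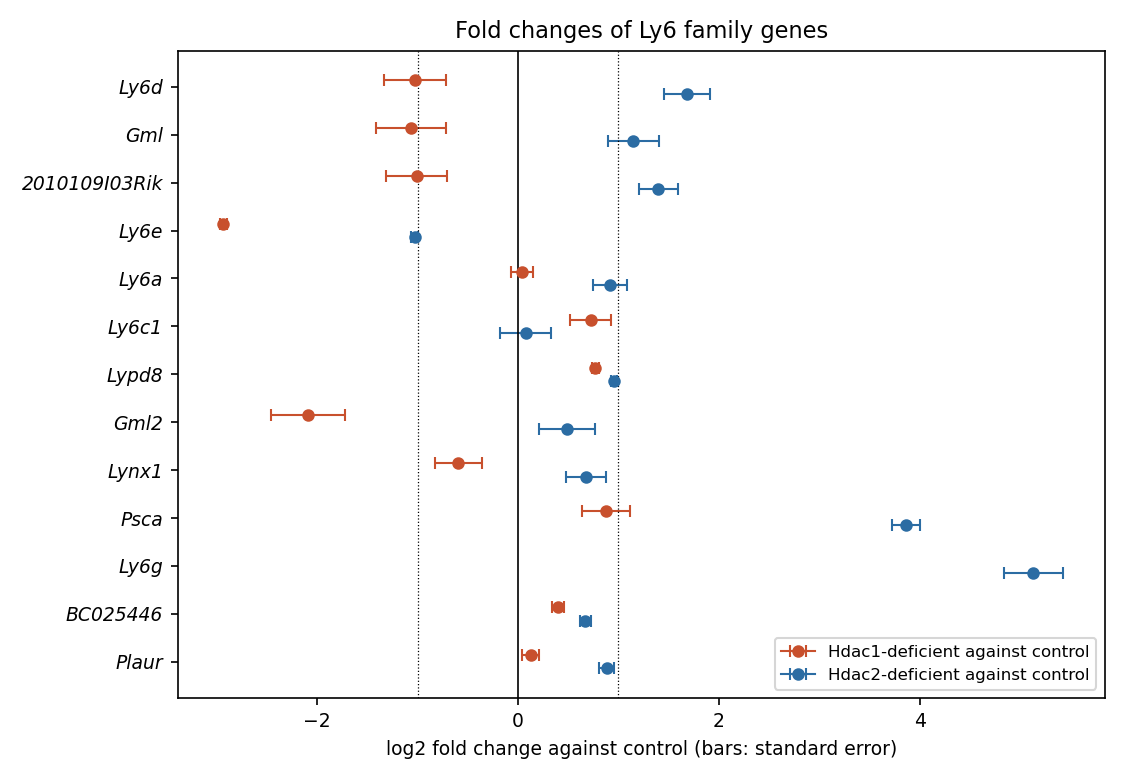
Log2 fold change against control (x axis) of the 7 listed genes and of Gml2, Lynx1, Psca, Ly6g, BC025446 and Plaur in Hdac1-deficient and Hdac2-deficient enteroids, with bars of 1 standard error and the 2-fold limits marked; Ly6g was not tested without Hdac1. Ly6e lies at -2.93 and -1.03, the genes the choice rested on lie on opposite sides of 0, and Lypd8 lies at 0.77 and 0.95.

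Dividing by the annotated exon length allowed levels to be compared between genes. In control enteroids Lypd8 was at 712 ± 19.4 CPM per kb (SD, n = 4), followed by Ly6e at 84.4 ± 1.95, Ly6a at 13.2 ± 1.88 and Ly6d at 1.59 ± 0.511 CPM per kb. Ly6c1 (0.562 ± 0.0485) and Gml (0.549 ± 0.109) came next and did not differ beyond their spread, and 2010109I03Rik was lowest at 0.257 ± 0.0159 CPM per kb. Without Hdac1, Ly6e (10.9 ± 0.482) was below Ly6a (13.5 ± 1.78 CPM per kb) by these lengths. Without Hdac2, Ly6e (41.0 ± 1.67) stayed above Ly6a (24.7 ± 4.91 CPM per kb). The joined exons are 3784 bases for Ly6e and 1205 for Ly6a, while their longest transcripts are 2281 and 955 bases. The order of this pair without Hdac1 therefore depends on the length used. Gml (1.22 ± 0.380) was above Ly6c1 (0.593 ± 0.236 CPM per kb) without Hdac2 and below it without Hdac1, at 0.253 ± 0.143 against 0.931 ± 0.234 CPM per kb. These lengths join all annotated exons of a gene, so a gene used mainly through a short transcript is understated.

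**Figure D3:**
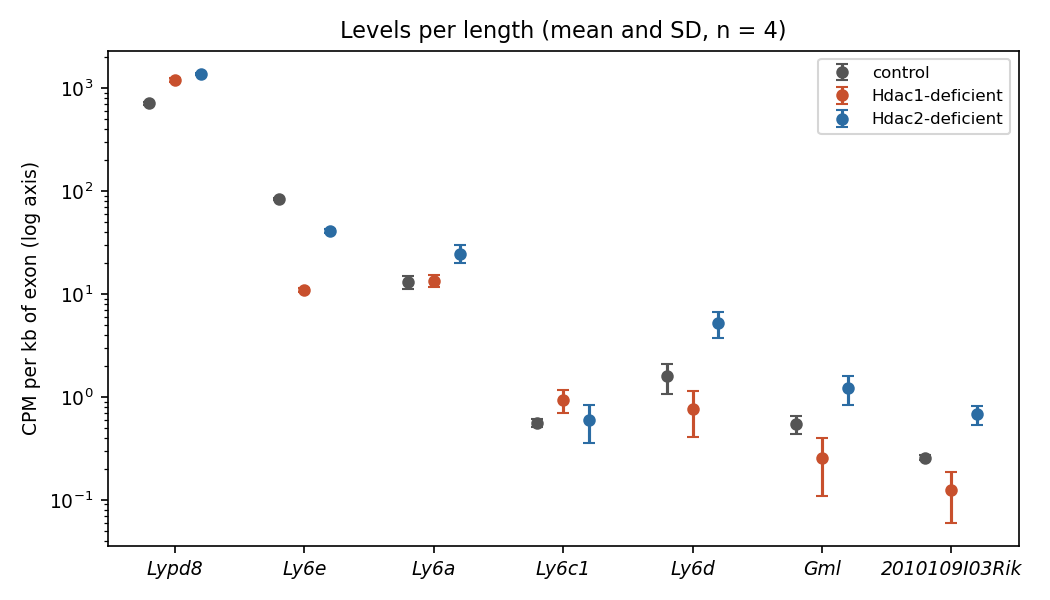
Mean CPM per kb of annotated exon (y axis, log scale) of the 7 listed genes in each group, with bars of SD over 4 libraries. Levels run from 0.123 for 2010109I03Rik without Hdac1 to 1372 for Lypd8 without Hdac2.

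Of a list of 56 Ly6/uPAR family symbols, 25 had a row, of which 18 were not among the genes above. With Ly6d, Gml and 2010109I03Rik left out, 9 family genes were tested against control for both deletions. Of these 9, Ly6e and Gml2 were called lower without Hdac1 (3.71% of all genes). Higher calls numbered 0 (6.87%) by edgeR, by DESeq2, or at an unadjusted p under 0.05 with the 2-fold limit. Gml2 passed the filter on low counts in that comparison only through the control libraries, in which it was high. Its call is therefore a description, and its test below is from the fit with no filter. Without Hdac2, Psca was called higher (5.45% of all genes) and Ly6e lower (2.84%). The median log2 fold change of the 9 was 0.12 without Hdac1 and 0.67 without Hdac2, against -0.004 and -0.0036 over all genes. Lypd6 and Ly6g were each tested for 1 deletion alone, having passed the filter on low counts only through the mutant libraries in which they were high, and are left out of these counts. In the direct comparison of 12 tested family genes, 5 had a lower call in the Hdac1-deficient enteroids (2.89% of all genes) and 0 a higher call (2.74%) by edgeR, by DESeq2, or at an unadjusted p under 0.05 with the 2-fold limit. The 5 were Ly6e, Gml2, Ly6g, Psca and Lynx1, of which Ly6g again passed the filter only through the Hdac2-deficient libraries. Gml2 passed it only through the control and Hdac2-deficient libraries. The calls of Gml2 and Ly6g are therefore a description. By adjusted p alone 9 were lower and 1 was higher, against 23.7% and 22.3% of all genes. Lynx1 is named after its values were seen, since it was called in neither comparison with control. It encodes a modulator of nicotinic acetylcholine receptors, and its log2 fold change was -0.59 without Hdac1 and 0.67 without Hdac2, both with overlapping libraries.

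Gml2, the neighbour of Gml, was at 0.670, 0.493, 0.396 and 0.588 CPM in control and at 0.0750, 0.162, 0.131 and 0.109 CPM in Hdac1-deficient replicates 1 to 4. All 4 Hdac1-deficient libraries, with 2 to 5 counts each, lay below control. Since Gml2 passed the filter on low counts in this comparison only through the control libraries, its test is from the fit with no filter. The log2 fold change without Hdac1 was -2.10 in that fit (SE 0.38, adjusted p = 4.9e-05 by edgeR), and it rests on few counts. The Hdac2-deficient replicates, at 0.737, 1.02, 0.727 and 0.477 CPM, overlapped control, and their log2 fold change of 0.49 had a 95% interval of -0.06 to 1.03. As 12.7% of its 100-base windows also occur in Gml, the division of reads between these neighbours is uncertain.

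Psca, prostate stem cell antigen, is a GPI-anchored surface protein at the edge of the same cluster. Its level was 0.536, 0.809, 0.495 and 0.588 CPM in control, 0.787, 1.04, 1.22 and 1.38 CPM in Hdac1-deficient and 8.51, 9.61, 8.24 and 8.89 CPM in Hdac2-deficient replicates 1 to 4. The Hdac2-deficient libraries stood far above the rest, and Hdac1-deficient replicate 1 overlapped control. Psca rose 14.6-fold without Hdac2 (log2 fold change 3.86, SE 0.14, adjusted p = 1.7e-15 by edgeR). Without Hdac1 its log2 fold change was 0.88 (SE 0.24, adjusted p = 0.0031 by edgeR), under the 2-fold limit.

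Ly6g, known as the surface marker of neutrophils, held 3, 3, 6 and 3 counts in control replicates 1 to 4 and 2, 4, 0 and 1 counts in Hdac1-deficient replicates. In Hdac2-deficient replicates 1 to 4 it held 96, 169, 94 and 105 counts. It was at or near the floor in the first 2 groups and above it in every Hdac2-deficient library. Since it passed the filter on low counts only through the Hdac2-deficient libraries, its test is taken from the fit with no filter, where the adjusted p without Hdac2 was 2.8e-14 by edgeR (2.0e-34 to 1.4e-09 over the alternatives run). The fitted log2 fold change of 5.13 there (SE 0.28) rests on the few control counts and is no exact size. Of 13 leukocyte markers, 9 had no row. The other 4 summed to 1.19 to 1.88 CPM in control libraries. Their sum was 3.14 to 4.17 CPM without Hdac1 and 2.78 to 3.67 CPM without Hdac2. In the Hdac2-deficient libraries Ptprc (CD45) held 1 to 4 counts against 0 to 2 in control, and S100a9 2 to 5 against 2 to 8. Csf1r was lower there, with 1 to 5 counts against 6 to 20 in control. Itgam held 50 to 88 counts against 19 to 28 in control. The part of these cells' RNA in the level of Ly6g was not tested.

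The promoters of Ly6c1, Ly6g and Ly6f are shown because these neighbouring genes, which have closely similar start regions, differed in RNA. Without Hdac2, Ly6g was at 94 to 169 counts against 3 to 6 in control, and Ly6c1 had a log2 fold change of 0.08. Ly6f held 6, 2, 1 and 1 counts in control, 9, 19, 18 and 9 in Hdac1-deficient and 10, 14, 16 and 15 in Hdac2-deficient replicates 1 to 4, too low for the test against control. The sequences run from 250 bases before to 50 after the start in RefSeq (GRCm38.p6), at chr15:75048788-75049087 on the minus strand for Ly6c1, chr15:75155011-75155310 on the plus strand for Ly6g and chr15:75268171-75268470 on the plus strand for Ly6f. Capitals mark the runs of at least 12 bases shared by all 3.
Ly6c1: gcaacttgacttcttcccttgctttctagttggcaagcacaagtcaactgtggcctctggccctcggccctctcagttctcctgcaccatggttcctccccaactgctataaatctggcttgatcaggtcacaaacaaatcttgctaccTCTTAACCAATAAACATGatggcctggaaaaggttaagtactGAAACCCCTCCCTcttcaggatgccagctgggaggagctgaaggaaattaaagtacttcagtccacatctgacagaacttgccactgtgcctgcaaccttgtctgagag
Ly6g: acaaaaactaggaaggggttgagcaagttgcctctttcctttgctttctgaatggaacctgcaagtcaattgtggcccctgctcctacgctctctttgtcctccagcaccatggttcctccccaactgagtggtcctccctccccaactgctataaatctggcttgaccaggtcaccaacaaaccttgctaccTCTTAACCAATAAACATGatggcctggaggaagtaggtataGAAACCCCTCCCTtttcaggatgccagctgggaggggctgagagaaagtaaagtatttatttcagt
Ly6f: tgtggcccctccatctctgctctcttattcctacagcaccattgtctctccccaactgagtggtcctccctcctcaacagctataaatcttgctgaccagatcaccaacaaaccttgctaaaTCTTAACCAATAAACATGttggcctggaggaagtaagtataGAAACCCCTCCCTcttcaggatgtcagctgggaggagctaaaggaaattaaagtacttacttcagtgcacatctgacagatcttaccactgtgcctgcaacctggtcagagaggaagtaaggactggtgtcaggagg
The shared runs were 18 and 13 bases long. In local alignments Ly6g and Ly6f were identical at 87.4% of 230 columns, Ly6c1 and Ly6f at 77.7% of 278 and Ly6c1 and Ly6g at 77.1% of 271 columns. The promoter of Lypd8, the member with the highest level per length, lies at chr11:58378782-58379081 on the plus strand, and capitals mark TATAA.
Lypd8: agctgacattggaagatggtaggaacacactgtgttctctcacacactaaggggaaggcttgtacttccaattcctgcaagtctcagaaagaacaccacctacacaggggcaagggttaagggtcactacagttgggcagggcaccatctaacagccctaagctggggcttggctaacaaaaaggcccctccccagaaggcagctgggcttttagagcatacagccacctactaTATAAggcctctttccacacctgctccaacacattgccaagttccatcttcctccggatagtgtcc
These 4 promoters each held TATAA and CCAAT, found on either strand in 25.5% and 37.9% of 27025 RefSeq promoters of the same length. None held TTCNNNGAA, the STAT type, which 8.47% of promoters held. The longer shared run contains CCAAT. Of the 8 genes, 2 (Ly6c1 and Lypd8) were matched by symbol in the RefSeq promoter table, and Ly6d, Gml, 2010109I03Rik, Ly6a, Ly6e and Ly6k were not. Other names, such as Ly6m for 2010109I03Rik, were not looked up.

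**Figure D4:**
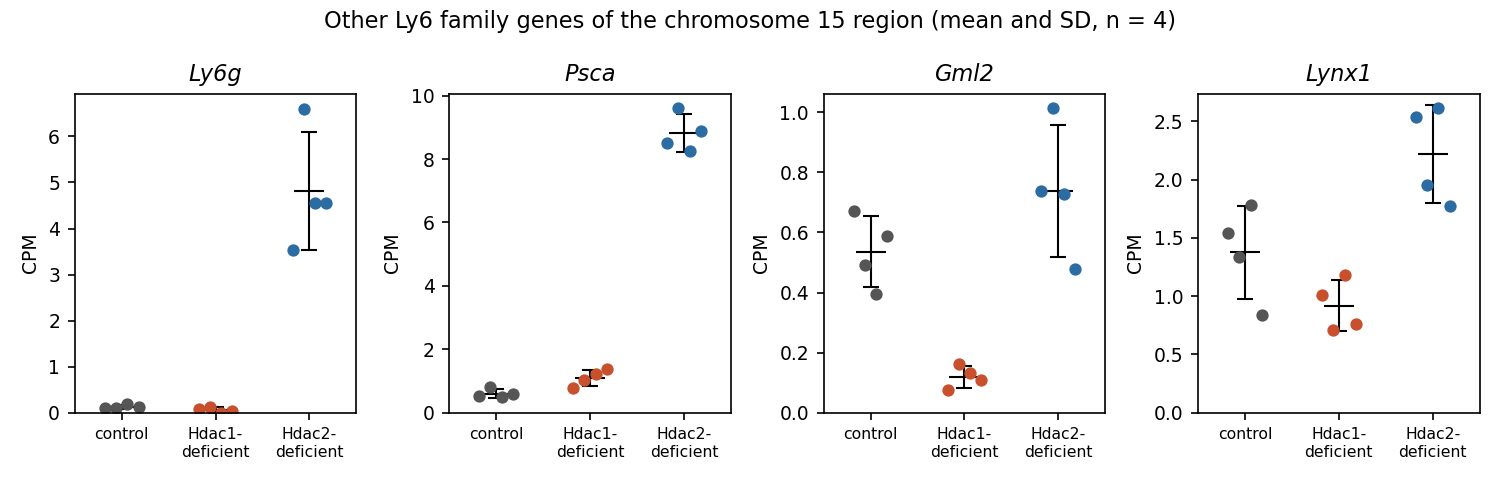
CPM (y axis, one scale per gene) of Ly6g, Psca, Gml2 and Lynx1 in the libraries of each group, with each point 1 library and bars showing mean and SD (n = 4). Ly6g and Psca are high in Hdac2-deficient libraries alone among these groups, and Gml2 is lowest without Hdac1.

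On chromosome 15 the annotated Ly6 family genes span chr15:74714839-75599481, which is 885 kb with 50 annotated genes. Of 23 family genes there, 12 had a row. Ly6d (chr15:74762056-74763620), Gml (chr15:74813452-74818815) and 2010109I03Rik (chr15:74876987-74897021) lie on the minus strand on one side of Ly6e (chr15:74955051-74959905, plus strand). Ly6a (chr15:74994877-74998031) and Ly6c1 (chr15:75044018-75048830) lie on the minus strand on its other side. Gml2 lies beside Gml, Psca at the near end of the span and Ly6g beyond Ly6c1.

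Within 500 kb of that span, 22 other genes were tested. Mroh6 was the only one of them called, higher in both mutants (2.83-fold without Hdac1 and 2.48-fold without Hdac2, adjusted p = 1.1e-05 and 4.6e-05 by edgeR). Higher calls covered 6.87% and 5.45% of all genes in these comparisons. The medians of the 22 were -0.01 without Hdac1 and 0.10 without Hdac2. In the comparison of Hdac1-deficient with Hdac2-deficient enteroids their median was -0.12, with 11 lower and 2 higher by adjusted p. Of all genes, 23.7% were lower and 22.3% higher by adjusted p in that comparison. The rest of chromosome 15 had a median of -0.15 there, with 256 of 513 genes lower and 47 higher by adjusted p, while the median over all genes was 0.01. The part of this chromosome-wide difference in the values of the family genes was not tested.

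**Figure D5:**
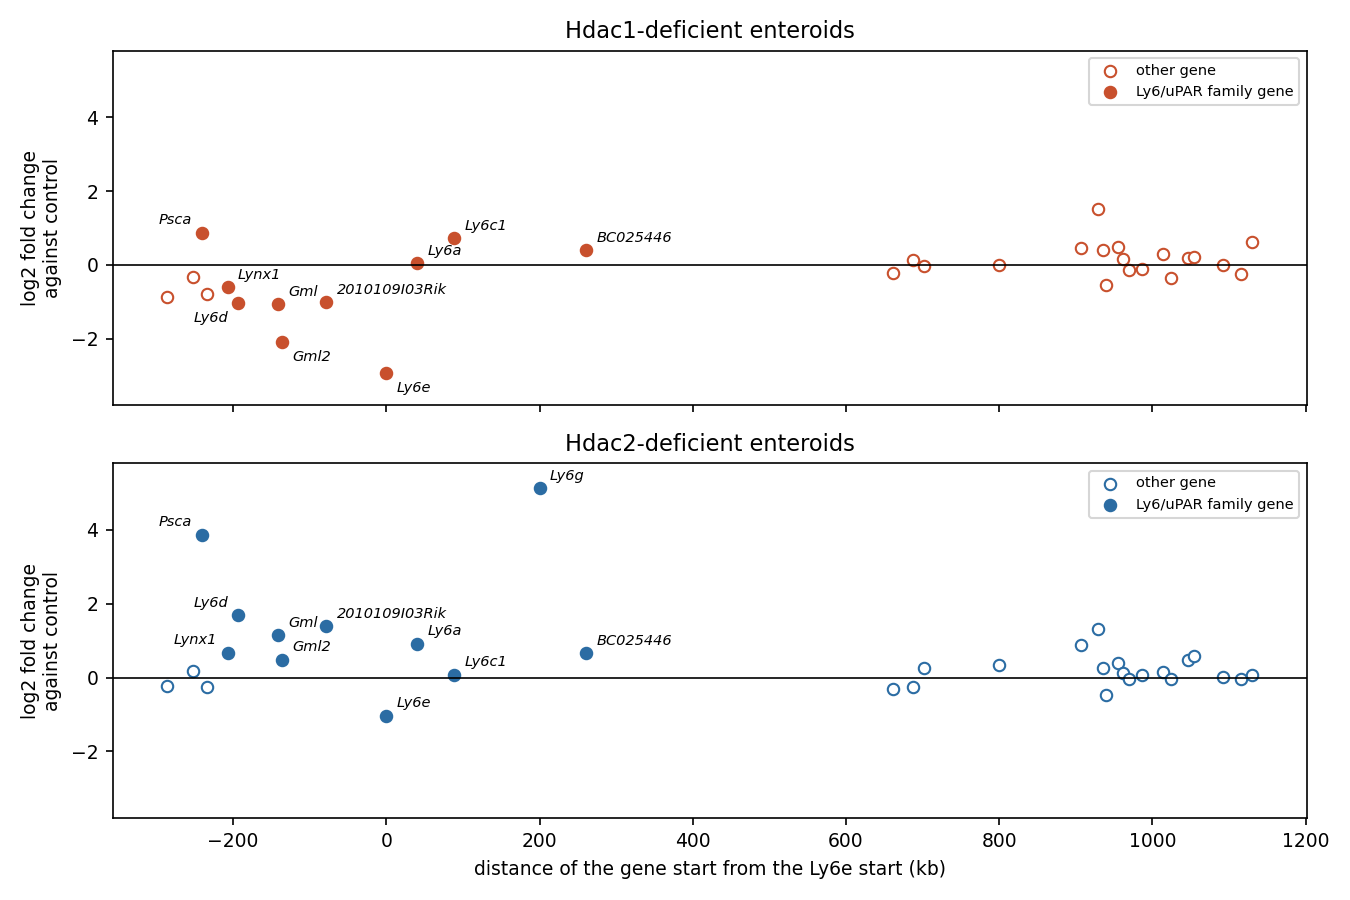
Log2 fold change against control (y axis) of the tested genes by distance of their start from that of Ly6e (x axis, kb), without Hdac1 above and without Hdac2 below, with family genes filled and other genes open. Ly6e lies at -2.93 and -1.03, Psca at 0.88 and 3.86, and most other genes lie near 0.

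Genes of related processes were counted for comparison. Of 28 genes that make or attach the GPI anchor, which most of these proteins need, 0 were called in any of the 3 comparisons by edgeR, by DESeq2, or at an unadjusted p under 0.05 with the 2-fold limit. By adjusted p alone, 9 were higher and 6 lower without Hdac1, where 32.7% and 31.9% of all genes were. Without Hdac2, 11 were higher and 3 lower, against 31.4% and 30.9% of all genes, and the medians were 0.03 and 0.01. Among interferon-stimulated genes, the class to which Ly6e belongs, 6 of 20 were called higher without Hdac1 and 10 of 22 without Hdac2, against 6.87% and 5.45% of all genes. Lower calls numbered 0 in both by edgeR, by DESeq2 and at an unadjusted p under 0.05 with the 2-fold limit. Oas3, called higher without Hdac2, passed the filter on low counts only through the Hdac2-deficient libraries (0.216 CPM in control, 1.06 in Hdac2-deficient). The higher counts are therefore a description. The genes called higher included Psmb8, an immunoproteasome subunit (log2 fold change 3.60 and 2.10), and Oas1a, an antiviral oligoadenylate synthetase (3.00 and 2.86), while Ly6e fell in both mutants.

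Ly6a has been used as a marker of regenerative or fetal-like epithelium. Of the other genes of that class, 6 of 11 were called higher without Hdac1 and 7 of 10 without Hdac2 (6.87% and 5.45% of all genes), with medians of 1.02 and 1.56. In each comparison 1 gene of the class was lower by adjusted p. Anxa8, called higher without Hdac1, passed the filter on low counts only through the Hdac1-deficient libraries (0.0781 CPM in control, 1.56 in Hdac1-deficient). These counts are therefore also a description. Msln, mesothelin, had log2 fold changes of 2.07 and 2.41, and S100a6, a calcium-binding protein, of 1.78 and 2.42. Ly6a itself was higher by adjusted p without Hdac2 and not without Hdac1. Of 9 squamous epithelial markers, the kind of cell that Ly6d marks, 7 had a row and only Krt4 was tested against control. Its log2 fold changes were 3.92 without Hdac1 and 3.32 without Hdac2. Krt4 held 8 to 27 counts in control, 254 to 396 without Hdac1 and 147 to 255 without Hdac2. It passed the filter on low counts only through the mutant libraries, so its values are a description. Trp63 held 0 to 7 counts in control, 2 to 4 without Hdac1 and 1 to 4 without Hdac2. Krt5 held 2 to 3, 0 to 4 and 1 to 3 counts in these groups. Dsg3 held 3 to 11, 0 to 8 and 5 to 12 counts. Ivl held 2 to 8, 9 to 22 and 5 to 19 counts. In control and without Hdac1, Dsc3 held 0 to 2 and 1 to 2 counts and Krt14 held 0 and 0 to 7.

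The genes most alike in pattern were ranked by Pearson's r of log2 CPM over the 12 libraries, among 12386 genes. The libraries fall into 3 groups, and all genes of a library share its depth, so these values are a description. For Ly6d they were Btg2 (r = 0.967), Rab27b (0.962), Vangl1 (0.959), Ap4b1 (0.956) and Chrna4 (0.956). For Gml they were Sil1 (r = 0.945), Atp8a2 (0.923), Adgrg1 (0.921), Spns3 (0.921) and Spink4 (0.921). For 2010109I03Rik they were Homer3 (r = 0.977), Ceacam1 (0.968), Prkar2b (0.968), Sardh (0.950) and Bmp2k (0.946). None of these 15 genes lies on chromosome 15, and most changed less than the genes they resembled, as Btg2 did with log2 fold changes of -0.14 and 0.29.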

How the data were processed

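Total RNA of 12 enteroid libraries was enriched for poly(A) RNA and made into directional libraries. Per the submitters' processing notes, reads were aligned to GRCm38 with STAR (2.4.0f1). The authors deposited raw counts of reads per gene in 1 table per mutant, with the same 4 control libraries in both and a lowest summed count of 10 per gene. The program that counted reads and its use of strand are not given in the sources used here. The deposited tables also hold a normalized score per library (rounded normalized counts), the authors' log2 fold changes and log2 CPM, and p-values from DESeq and edgeR, none of which was used. Samples were grouped by their titles.

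The test was edgeR's (4.0.16, R 4.3.3) quasi-likelihood F test of these counts, with TMM factors and filterByExpr. It covered 14246 genes in the Hdac1 and 14007 in the Hdac2 comparison, and 14510 between the mutants in a fit of all 12 libraries. The standard error is the log2 fold change divided by the square root of F. Low counts limited precision, since 3 counts equal 0.0979 to 0.145 CPM. Alternatives were DESeq2 (1.42.0), relative log expression factors, library size alone, no filter, a replicate block, 12 libraries in 1 fit, genes of either table and each library left out. The test was tried on simulated data first.

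The members and gene lists were chosen with earlier results of these data known. Gm14851 was dropped from the family list, since it lies among defensin genes. Named genes were the members, family genes and locus neighbours called in a mutant, up to 3 called genes per other list, and the 5 most alike genes. Positions were from GENCODE M21, and promoters from RefSeq (GRCm38.p6).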

Additional observations from a re-analysis of the deposited data

Results flagged for a closer look

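In 2 groups of 4 libraries 1 library stood apart from the rest. Lypd8 was at 1642 CPM in Hdac1-deficient replicate 4, where the next library was at 1522 CPM, a gap of 0.882 of the range. It was at 1815 CPM in Hdac2-deficient replicate 1, where the next was at 1751 CPM, a gap of 0.848 of the range. A gap this wide arises by chance in about 1 in 20 groups, and 36 groups were looked at. Both libraries lay on the side away from control.

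In 5 family genes outside those the choice rested on, the effect of the Hdac1 deletion differed from that of the Hdac2 deletion past 2-fold in the direct comparison of the mutants (edgeR's quasi-likelihood test). The log2 difference, Hdac1-deficient minus Hdac2-deficient, was -1.90 for Ly6e (adjusted p = 8.3e-24), -1.27 for Lynx1 (adjusted p = 2.3e-05) and -2.99 for Psca (adjusted p = 6.9e-16). It was -6.21 for Ly6g (adjusted p = 7.5e-14) and, in the fit with no filter, -2.58 for Gml2 (adjusted p = 1.0e-06). These were 5 of 12 family genes tested, and 2.89% of all genes were called lower in this comparison. No library of one mutant overlapped the other in any of the 5. Among all genes 22.1% were lower with no overlap. The 5 were picked by the same comparison, so the lack of overlap adds no support. The value of Ly6g is a fitted one, since its Hdac1-deficient libraries held 0 to 4 counts, and the gene passed the filter on low counts only through the Hdac2-deficient libraries. With no filter the adjusted p of Ly6g was 4.9e-16 (4.7e-26 to 5.6e-12 over the alternatives run). Gml2 held 2 to 5 counts in its Hdac1-deficient libraries. It passed the filter only through the control and Hdac2-deficient libraries, so its call is a description.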

How the results depend on the processing

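Without a filter on low counts, 1581 genes were called higher without Hdac1, and 1170 higher and 622 lower without Hdac2, against 979, 764 and 398 with it. Family genes called higher, with Ly6d, Gml and 2010109I03Rik left out, numbered 1 without Hdac1 (Lypd6) and 2 without Hdac2 (Ly6g and Psca). These became 4 and 4 with DESeq2, 6 and 6 with no filter, and 2 and 4 with 12 libraries in 1 fit, where Ly6f and Cd59a were among the added genes with DESeq2 and with no filter. With each library left out they ranged from 1 to 3 (2 or 3 without control replicate 2 or 4 or Hdac1-deficient replicate 1 or 4) and from 3 to 4 (4 without control replicate 2 or 4 or Hdac2-deficient replicate 1 or 3).

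The direction turned only for values near 0. With 1 library left out, Ly6a without Hdac1 ranged from -0.0317 (without control replicate 4; -0.0272 without Hdac1-deficient replicate 1) to 0.1289, and Ly6c1 without Hdac2 from -0.1616 (without Hdac2-deficient replicate 2; -0.0412 without replicate 3) to 0.2447. Ly6a passed the 2-fold limit without Hdac2 at 1.00 when control replicate 2 or Hdac2-deficient replicate 1 was left out, and Psca passed it without Hdac1 at 1.05 and 1.00 without control replicate 2 and Hdac1-deficient replicate 1. The other values kept their direction and their side of the limit in these alternatives, apart from Ly6d, Gml and 2010109I03Rik, which carry no test.

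Over all genes, same-numbered libraries did not deviate together (correlations of -0.0455 to 0.0913), and the main fits used no pairing. Single genes can differ from this. A replicate block changed the SE of Ly6a without Hdac2 from 0.1717 to 0.0565, and that of Ly6e without Hdac1 from 0.0377 to 0.0403. With a replicate block, 978 genes were called higher and 523 lower without Hdac1, and 763 higher and 395 lower without Hdac2, and no call of a family gene changed. Counts of a few reads per library limit Ly6d, Gml, Gml2 and 2010109I03Rik.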

Other observations

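The 3 family genes Plaur, Lypd6 and Cd59a lie outside the chromosome 15 cluster, and Plaur, Cd59a and BC025446, like Ly6f above, are named after their values were seen. Plaur, the urokinase receptor, was at 8.28 CPM in control, 8.99 without Hdac1 and 15.3 without Hdac2, with a log2 difference between the mutants of -0.76 (adjusted p = 1.2e-08 by edgeR's test). Lypd6, an enhancer of Wnt signalling, held 1, 10, 4 and 5 counts in control, 18, 17, 18 and 20 without Hdac1 and 12, 12, 7 and 9 without Hdac2 in replicates 1 to 4, and control replicate 2 was the nearest to the mutants. It passed the filter on low counts only through the Hdac1-deficient libraries. With no filter its log2 fold change without Hdac1 was 1.80 (SE 0.39, adjusted p = 3.5e-04 by edgeR, 6.7e-05 to 0.002 over the alternatives run), and with each library left out it ranged from 1.45 to 2.37. Cd59a, which protects cells from complement, held 0 to 1 counts in control, 2 to 10 without Hdac1 and 4 to 10 without Hdac2.

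BC025446, named Ly6g2 by RefSeq and lying in the cluster, was higher in both mutants without passing 2-fold. Its log2 fold change was 0.40 without Hdac1 (adjusted p = 8.3e-06 by edgeR) and 0.67 without Hdac2 (adjusted p = 8.2e-10 by edgeR).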
